A study of Mus musculus with 15 samples.

Results

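Eph receptors are tyrosine kinases of the cell surface, and ephrins are their ligands, which stay attached to the membrane of the neighbouring cell. The 10 genes of this family followed here were the receptors Ephb2, Ephb3, Ephb4, Epha1, Epha2 and Epha4 and the ephrins Efnb1, Efnb2, Efna1 and Efna4. They were chosen as a named list, with earlier results of these data known, and matched by Ensembl identifier. All 10 were found among the 54418 gene identifiers of the count table. The 15 libraries were made from colon cancer organoids, tumour cells grown as small three-dimensional cultures. The genotype was AKP in every library, and the labels do not spell out the alleles. All recipient mice were C57Bl6. Organoids were put into the colon, grown out again from the tumours that formed, and returned to new mice over successive rounds. Met1, Met2 and Met3 are organoids from liver metastases of rounds 1, 2 and 3. Primary2 and Primary3 are organoids from primary colon tumours of rounds 2 and 3 and served as the controls. Each of the 5 groups held 3 libraries, called rep 1 to 3 here. Whether the replicates were separate animals, separate lines or repeat cultures is not stated, so a p-value here reflects the spread among these samples alone, and that spread may be technical.

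In the normal intestine, Wnt signalling keeps EphB2 and EphB3 high at the base of the crypt, while ephrin-B1 and ephrin-B2 rise towards the surface. Contact between a receptor-bearing cell and a ligand-bearing cell leads to repulsion, which sorts cells along the crypt axis. EphB4 pairs mainly with ephrin-B2 and is best known from veins, where it faces arterial ephrin-B2. The A receptors bind the A ephrins, which are held in the membrane by a lipid anchor, and EphA2 with ephrin-A1 is a common pair in epithelia. EphA4 is unusual in that it also binds B ephrins.

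Total counts ran from 14122203 to 21306543 per library, and each of the 10 genes had counts in every library and passed the filter on low counts, as did 14925 genes in all. Levels are given as CPM, counts per 1000000 counts of the library after TMM scaling. The library Met2 rep 1 stood apart: its summed CPM of 11 colon epithelium markers was 5879, against 15139.5 and 16431.5 in the other Met2 libraries, 6379 to 8836 in the primaries and 11460.1 to 17008 in Met1 and Met3. The colon marker Cdx1 was at most 0.16 CPM in any group mean, although Epcam, keratins and the other markers on that list had counts in every group. The summed CPM of 10 fibroblast markers was 5.23 in Met2 rep 1 and at most 1.24 in any other library, with Lum at 0 in all groups. That of 10 leukocyte markers was 6.39 to 19.9 in the primaries, 19.9 to 29.3 in Met1, 8.81 to 14.6 in Met2 and 16.2 to 24.2 in Met3, with Adgre1, Lyz2 and Tyrobp at 0 in all groups. Most of it was Cd68, at 5.82 and 8.96 CPM in Primary2 and Primary3 and 22.8, 10.3 and 19.4 in Met1, Met2 and Met3, while Csf1r was at 2.88 and 6.04 in the primaries and at most 0.258 in a metastasis group. The summed CPM of 10 hepatocyte markers was 15.1 to 31.7 in the primaries and 27.4 to 95.4 in Met1. It was 0.335 to 15.9 in Met2 and 5.03 to 17.3 in Met3. By group mean most of it was Hnf4a, at 49.4 CPM in Met1 and 7.53 to 29.4 in the other groups. Alb was at 3.02 CPM in Met1 and at most 0.251 in another group mean. The part of these markers in the results was not tested. Reads of a ribosomal RNA gene took 2.01% to 7.52% of the counts, with all 3 Met2 libraries at 6.24% or more. Primary3 rep 2 and rep 3 were at 6.59% and 7.03%, while Primary3 rep 1 was at 3.53%. No other library was above 4.09%.

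Organoids from later metastases (Met2 and Met3 together, 6 libraries) carried more Ephb2, Epha1 and Epha4 mRNA than organoids from primaries (6 libraries), and less Ephb4, Efnb2 and Efna4. Ephb2 was 4.93-fold higher and Ephb4 5.84-fold lower. Ephb3, Epha2, Efnb1 and Efna1 did not pass the test. A gene is counted as called here when its adjusted p in edgeR's quasi-likelihood test is under 0.05 over all genes tested. By that rule 6 of the 10 were called, where 30.4% of all genes tested were called. Of the 6, 3 were higher and 3 lower, where 14.3% of all genes were higher and 16.1% lower. The median log2 change over the 10 was 0.18, against 0.01 over all genes. Since the 10 were chosen with earlier results known, these comparisons with all genes cannot show whether the family stood out. The other gene lists were chosen in the same way. In bulk RNA, fewer cells of a type and less RNA per cell cannot be told apart.

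**Figure D1:**
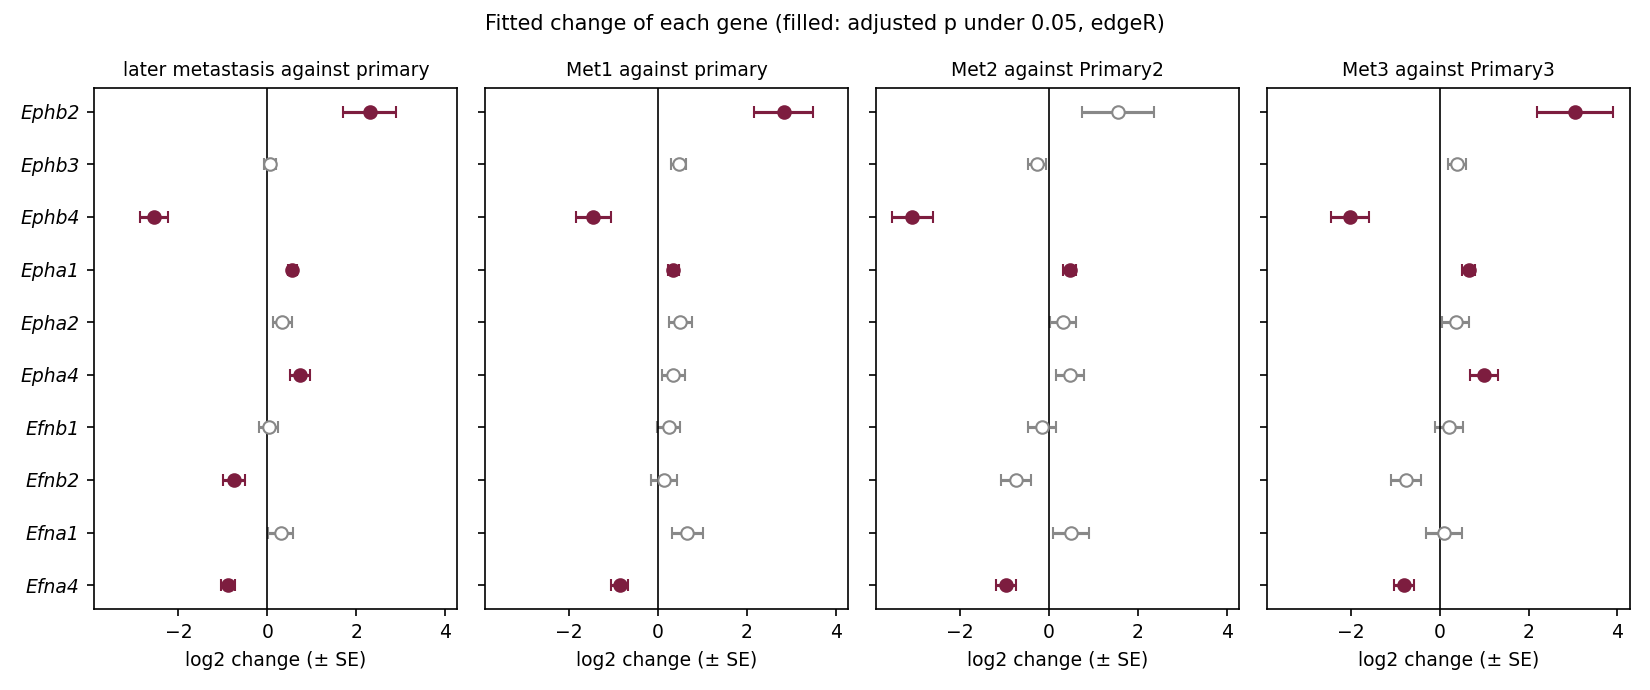
Fitted log2 change (± SE) of the 10 genes in 4 comparisons of metastasis with primary organoids; filled points have an adjusted p under 0.05. Ephb2 lies to the right and Ephb4 to the left of 0 in each panel, while Efnb1 stays within 0.24 of 0 throughout.

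Ephb2 (chromosome 4, 136647539 to 136835988, minus strand, GRCm38) encodes the receptor that marks the crypt base. Its CPM was 146, 94.8 and 72.6 in Met1 reps 1, 2 and 3. In Met2 it was 1.68, 65.6 and 101, and in Met3 it was 113, 80.5 and 91.1. The primaries held 11.4, 25.5 and 20.05 in Primary2 and 10.2, 14.6 and 9.72 in Primary3. Thus 8 of the 9 metastasis libraries lay above every primary library, and Met2 rep 1 lay below all of them. Group means were 105 ± 37.8 CPM in Met1, 55.9 ± 50.2 in Met2, 95.0 ± 16.8 in Met3, 19.0 ± 7.10 in Primary2 and 11.5 ± 2.67 in Primary3 (SD, n = 3 each). The later metastases exceeded the primaries by 2.30 on the log2 scale (SE 0.59, edgeR adjusted p = 0.0112). Without Met2 rep 1 the difference was 2.59 (edgeR adjusted p = 2.83e-05). Over all fits with 1 library left out it ran from 1.97 to 2.59. Met1 exceeded the primaries by 2.82 (SE 0.67, edgeR adjusted p = 0.00855), with no overlap of libraries, which held for 32.5% of all genes.

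Within round 3, Ephb2 was higher in Met3 than in Primary3 by 3.04 on the log2 scale (SE 0.86, edgeR adjusted p = 0.0278). That call was lost without Met3 rep 1 or rep 2 or any 1 Primary3 library, at an edgeR adjusted p of up to 0.101, although the log2 difference stayed at 2.93 or more. Within round 2 the difference was 1.56 (SE 0.81, edgeR adjusted p = 0.226), and it was 2.13 (adjusted p = 0.00377) without Met2 rep 1 and 0.87 (adjusted p = 0.56) without Met2 rep 3. The 250 bases before the RefSeq start of Ephb2 (chr4:136836013-136836262, minus strand, GRCm38.p6) are shown with those of Ephb4, the gene that moved most in the other direction (chr5:137349859-137350108, plus strand). They were searched on both strands for a core TCF/LEF motif (CTTTGA), since Ephb2 and Ephb3 are textbook Wnt targets, and for the GATA motifs AGATAA and TGATAA, since GATA6 is named in the series title. Matches would be in capitals, and neither window holds any.
Ephb2: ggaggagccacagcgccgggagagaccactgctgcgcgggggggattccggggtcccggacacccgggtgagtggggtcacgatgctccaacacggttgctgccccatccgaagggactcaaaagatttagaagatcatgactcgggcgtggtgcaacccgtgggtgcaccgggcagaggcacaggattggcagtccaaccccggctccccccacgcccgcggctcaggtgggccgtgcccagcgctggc
Ephb4: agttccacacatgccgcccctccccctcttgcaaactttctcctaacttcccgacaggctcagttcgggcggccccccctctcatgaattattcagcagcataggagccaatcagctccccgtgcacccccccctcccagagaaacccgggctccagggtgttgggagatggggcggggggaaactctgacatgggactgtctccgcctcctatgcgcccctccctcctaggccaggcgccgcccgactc
The TCF/LEF core was present in 13.8% of 32851 RefSeq windows of the same length, and a GATA motif in 16.6%. Of the 11 windows of the 10 genes, 1 held the first and 1 the second, and these are shown with Epha2 and Efna4. The RefSeq start of Ephb2 did not coincide with a GENCODE transcript start. A missing match says only that these letters are not in this window.

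Ephb4 (chromosome 5, 137350109 to 137378669, plus strand) had the highest level per kilobase of the B receptors among the 10 genes in the primaries. Primary2 libraries held 127, 113 and 123 CPM and Primary3 libraries 105, 103 and 100.5. Met1 libraries held 18.4, 58.4 and 45.0, Met2 libraries 13.1, 17.5 and 12.6, and Met3 libraries 10.2, 25.3 and 40.5. Every metastasis library lay below every primary library, and the highest metastasis library, Met1 rep 2, was at 58.4 against 100.5 in the lowest primary. The spread also differed by group: the SD was 2.13 CPM in Primary3, on a mean of 103, and 20.3 in Met1, on a mean of 40.6.

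The change of Ephb4 in the later metastases was -2.55 on the log2 scale (SE 0.31, edgeR adjusted p = 0.00017). Across all genes tested, 12.2% had later metastasis and primary libraries that did not overlap, and of the 10 genes Ephb4 and Epha1 did so. Within rounds the change was -3.07 for Met2 against Primary2 (SE 0.45, edgeR adjusted p = 0.00277) and -2.02 for Met3 against Primary3 (SE 0.43, edgeR adjusted p = 0.00824). In Met1 it was -1.46 (SE 0.39, edgeR adjusted p = 0.0144), which became -1.11 (adjusted p = 0.0519) without Met1 rep 1. Met2 was lower than Met1 (-1.495, SE 0.43, edgeR adjusted p = 0.0349), a call lost without Met1 rep 2 or rep 3 or any 1 Met2 library. Ephb4 is also an endothelial gene, so endothelial markers were read beside it. Kdr and Emcn were at 0 in all groups and Cdh5 was at most 0.0223 CPM in a group mean. The summed CPM of the 10 endothelial markers was 10.6 to 34.9 in the primaries, 5.36 to 14.6 in the later metastases and 7.68 to 56.3 in Met1. Flt1 was lower in the metastases, as Ephb4 was, with group means of 9.69 and 20.6 CPM in Primary2 and Primary3 and 3.56, 2.61 and 3.30 in Met1, Met2 and Met3. Tie1 went the other way in the later metastases, with group means of 2.50 CPM in Met2 and 5.75 in Met3. Its means were 1.72 in Primary2, 1.56 in Primary3 and 0.356 in Met1. Vwf was at 21.4 CPM in Met1 and at most 0.767 in the other groups. In later metastases edgeR called 0 of 4 tested endothelial markers higher and 1 lower, against 14.3% and 16.1% of all genes. The part of these markers in the change of Ephb4 was not tested. Ephb4 shares 33 bases with Zan on the other strand. Zan was at 0.344 to 2.53 CPM in the group means, and its change in later metastases was -2.25 (SE 0.47, edgeR adjusted p = 0.00378).

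Ephb3 (chromosome 16, 21204755 to 21223305, plus strand) encodes the partner of EphB2 in crypt sorting. It held 64.1, 81.7 and 60.6 CPM in Met1, 39.0, 54.9 and 36.4 in Met2, and 67.0, 47.7 and 73.2 in Met3. Primary2 held 44.7, 51.6 and 60.1 and Primary3 45.9, 52.8 and 44.2. The later metastases and the primaries overlapped, and their difference was 0.07 (SE 0.14, edgeR adjusted p = 0.753). All 3 Met1 libraries lay above all 6 primaries, where 32.5% of all genes did not overlap. The difference was 0.47 on the log2 scale (SE 0.17, edgeR adjusted p = 0.0526), just outside the call. With DESeq2's Wald test the same comparison gave an adjusted p of 0.0369. Met2 was lower than Met1 (-0.66, SE 0.20, edgeR adjusted p = 0.0395), a call lost without any 1 Met1 library or without Met2 rep 1 or rep 3.

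**Figure D2:**
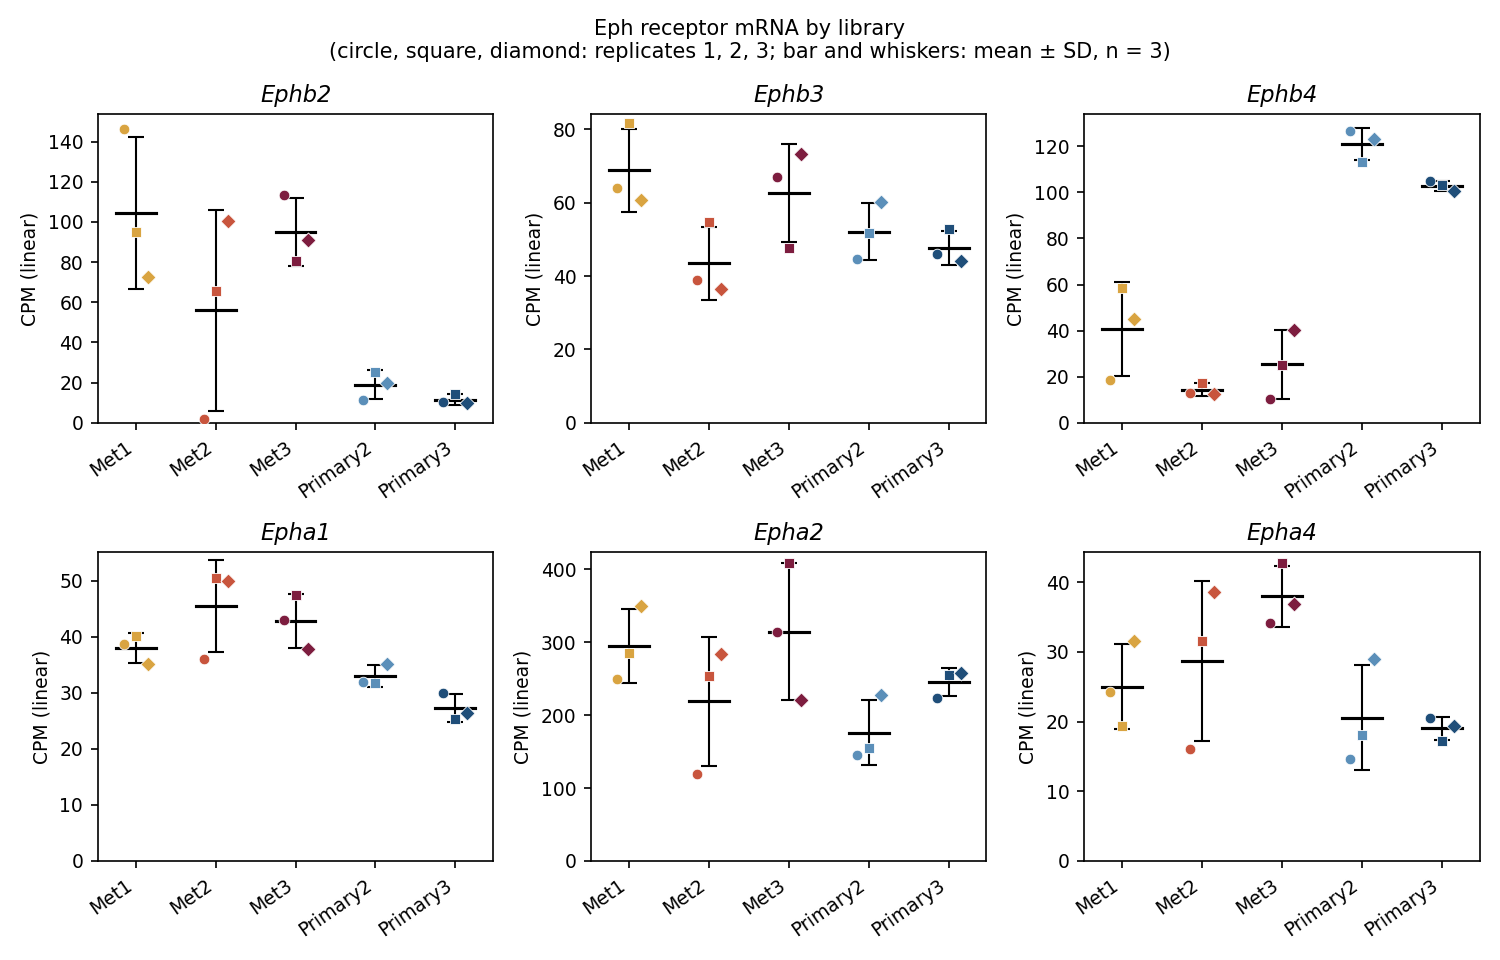
CPM of the 6 Eph receptor genes in each library on linear axes that start at 0, with group mean ± SD (n = 3). Ephb2 is low and Ephb4 high in the primaries, Met2 rep 1 is the single metastasis library with Ephb2 at 1.68, and Epha1 sits above 36 in all 6 later metastasis libraries.

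Per kilobase of exon, the 3 B receptors can be compared with each other within a library. In the 6 primary libraries Ephb4 made up 70.9% to 78.1% of the summed EphB level per kilobase, Ephb3 19.3% to 25.4% and Ephb2 2.59% to 5.91%. In the 9 metastasis libraries the share of Ephb4 was 10.4% to 39.4%. Ephb2 supplied 23.2% to 49.3% of the sum in 8 of these and 1.504% in Met2 rep 1, where Ephb3 reached 66.5%. The sum itself was 35.4 ± 1.55 CPM per kilobase in Primary2 and 30.2 ± 1.12 in Primary3. It was 27.4 ± 4.33 in Met1, 14.1 ± 4.57 in Met2 and 22.4 ± 4.10 in Met3 (SD, n = 3 each). These shares are a description with no test.

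**Figure D3:**
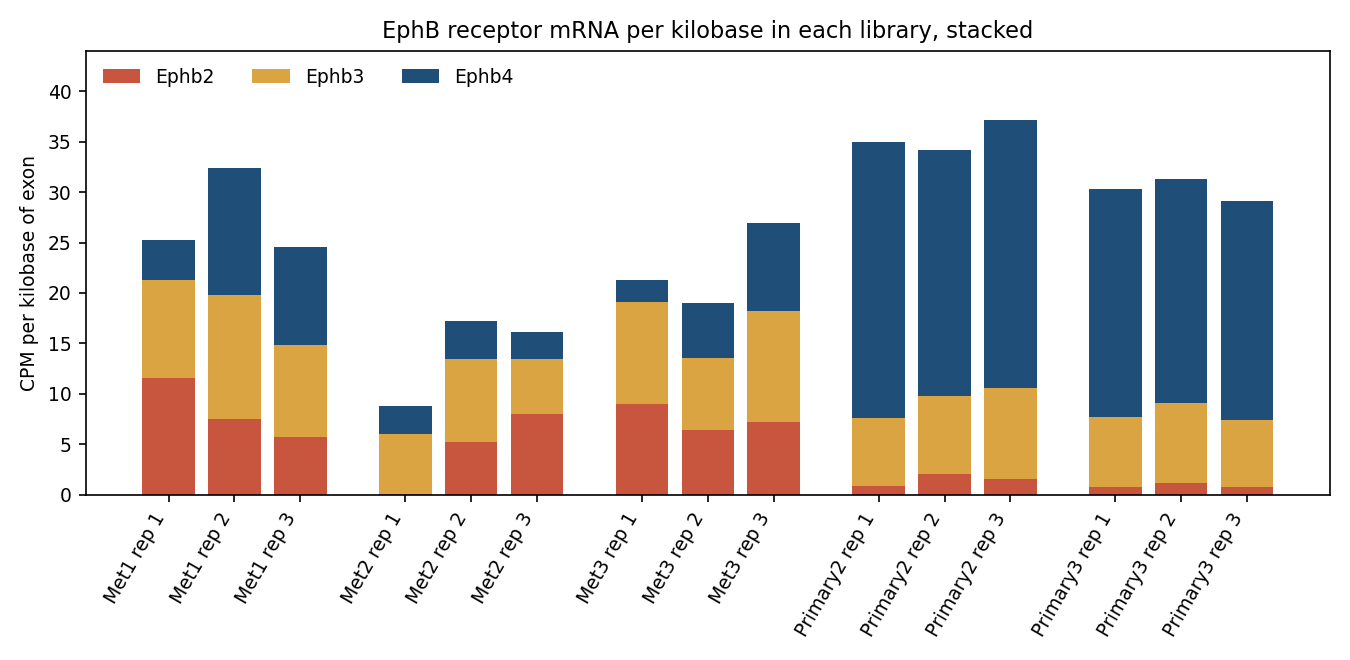
CPM per kilobase of exon of Ephb2, Ephb3 and Ephb4 stacked for each library. Ephb4 fills 70.9% or more of every primary bar and 39.4% or less of every metastasis bar, and Ephb2 is almost missing from Met2 rep 1.

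Among the A receptors, Epha1 (chromosome 6, 42358487 to 42373268, minus strand) showed a small shift with little spread. It held 38.7, 40.2 and 35.1 CPM in Met1, 36.1, 50.5 and 49.9 in Met2, and 43.1, 47.4 and 37.8 in Met3. Primary2 held 31.9, 31.7 and 35.2 and Primary3 30.1, 25.3 and 26.4. All 6 later metastasis libraries lay above all 6 primaries, where 12.2% of all genes did not overlap. The difference was 0.56 on the log2 scale (SE 0.10, edgeR adjusted p = 0.00154), a 1.47-fold change. In round 3 it was 0.65 (SE 0.14, edgeR adjusted p = 0.00873). The differences of 0.47 in round 2 (edgeR adjusted p = 0.0487) and 0.34 in Met1 (edgeR adjusted p = 0.0474) were called narrowly. The round 2 call was lost without Met2 rep 2 or rep 3 or any 1 Primary2 library, and the Met1 call without any 1 library other than Primary3 rep 1, at an adjusted p of up to 0.174. The end of Epha1 overlaps 1727 bases of Zyx on the other strand, and whether strand was used in counting is not given in the sources used here. Zyx itself changed by 0.05 in later metastases (SE 0.17, edgeR adjusted p = 0.862).

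Epha4 (chromosome 1, 77367185 to 77515088, minus strand), the receptor that binds ephrins of both classes, was the lowest of the 10 per kilobase. It held 24.2, 19.3 and 31.5 CPM in Met1, 16.0, 31.5 and 38.6 in Met2, and 34.2, 42.8 and 36.9 in Met3. Primary2 held 14.6, 18.1 and 29.1 and Primary3 20.6, 17.2 and 19.3. In the later metastases 5 of 6 libraries exceeded the highest primary library, and Met2 rep 1 lay among the primaries. The difference was 0.74 (SE 0.22, edgeR adjusted p = 0.0223), and its adjusted p was 0.053 without Primary2 rep 2 and 0.0525 without Primary3 rep 2. In round 3 it was 0.996 (SE 0.31, edgeR adjusted p = 0.0401), a call lost without any 1 of the 6 libraries, at an adjusted p of up to 0.119. In round 2 it was 0.48 (edgeR adjusted p = 0.33) and in Met1 0.34 (edgeR adjusted p = 0.348).

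Epha2 (chromosome 4, 141301240 to 141329384, plus strand) had the highest level of the 10 genes per kilobase. Its CPM was 249, 285 and 349 in Met1, 119, 254 and 284 in Met2, and 314, 409 and 221 in Met3. Primary2 held 145, 156 and 227 and Primary3 223, 256 and 258. The groups overlapped, with the lowest value in Met2 rep 1 and the highest in Met3 rep 2. The difference between later metastases and primaries was 0.34 (SE 0.21, edgeR adjusted p = 0.25). Without Met2 rep 1 it was 0.48 and passed the test (edgeR adjusted p = 0.0389). The window before the start of Epha2 (chr4:141300971-141301220, plus strand, GRCm38.p6) is the one that holds the TCF/LEF core, in capitals, 209 bases before the start.
Epha2: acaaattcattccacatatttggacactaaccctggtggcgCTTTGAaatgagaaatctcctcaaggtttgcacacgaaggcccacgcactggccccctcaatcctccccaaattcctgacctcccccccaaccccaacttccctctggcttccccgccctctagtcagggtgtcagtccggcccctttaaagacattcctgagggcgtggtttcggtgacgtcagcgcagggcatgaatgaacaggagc
No binding of a TCF factor was measured, and the match is a description of the sequence.

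Of the ephrins, Efnb1 (chromosome X, 99136130 to 99148991, plus strand), the main B ligand of the upper crypt, was even across groups. Its CPM was 43.8, 52.1 and 50.2 in Met1, 17.4, 53.4 and 46.6 in Met2, and 37.1, 55.0 and 43.6 in Met3. Primary2 held 36.4, 44.1 and 50.4 and Primary3 32.4, 42.5 and 42.3. Met2 rep 1, at 17.4, was the only library below 32. The difference between later metastases and primaries was 0.03 (SE 0.22, edgeR adjusted p = 0.941), and its sign changed between alternative fits.

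Efnb2 (chromosome 8, 8617434 to 8661242, minus strand), the ligand of EphB4, held 24.9, 67.4 and 44.9 CPM in Met1, 18.2, 23.4 and 22.1 in Met2, and 28.1, 28.6 and 31.8 in Met3. Primary2 held 23.5, 27.7 and 55.0 and Primary3 40.5, 55.3 and 53.2. Primary3 lay above Met3 without overlap, where 44.4% of all genes did not overlap, and Primary2 spanned from 23.5 to 55.0. The later metastases were lower (-0.75, SE 0.24, edgeR adjusted p = 0.0338). This call was lost without any 1 of the 6 later metastasis libraries, Primary2 rep 3, Primary3 rep 2 or Primary3 rep 3, at an adjusted p of up to 0.0927. It was also lost when Met1 was counted among the metastases, where the change was -0.46 (adjusted p = 0.13). Met1 did not differ from the primaries by the test (0.12, edgeR adjusted p = 0.779), and Met2 was lower than Met1 (-1.11, SE 0.34, edgeR adjusted p = 0.0456), a call lost without Met1 rep 2 or rep 3 or any 1 Met2 library.

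Efna1 (chromosome 3, 89271733 to 89281142, minus strand), the ligand of EphA2, varied widely within groups. Its CPM was 38.4, 97.2 and 112 in Met1, 53.4, 69.9 and 89.7 in Met2, and 65.4, 63.6 and 45.1 in Met3. Primary2 held 33.3, 76.1 and 42.2 and Primary3 32.3, 62.8 and 66.6. The groups overlapped, and the difference between later metastases and primaries was 0.30 (SE 0.29, edgeR adjusted p = 0.462). In Met1 the difference from the primaries was 0.66 (SE 0.34, edgeR adjusted p = 0.162). Efna1 was called higher in Met1 with the ribosomal RNA share in the fit (1.29, edgeR adjusted p = 0.0115). The same held without Met1 rep 1 (1.004, edgeR adjusted p = 0.0422). It stayed uncalled there under the other 13 of 15 alternatives.

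Efna4 (chromosome 3, 89333390 to 89338028, minus strand), another A ephrin, held 29.9, 22.4 and 26.2 CPM in Met1, 24.1, 38.8 and 19.2 in Met2, and 27.0, 20.5 and 25.6 in Met3. Primary2 held 49.6, 52.9 and 57.5 and Primary3 42.8, 38.5 and 46.2. Only Met2 rep 2, at 38.8, reached the lowest primary library, at 38.5. The change was -0.88 in later metastases (SE 0.15, edgeR adjusted p = 0.0013) and -0.86 in Met1 (SE 0.19, edgeR adjusted p = 0.00667). Within rounds it was -0.96 in round 2 (SE 0.22, edgeR adjusted p = 0.0163) and -0.80 in round 3 (SE 0.22, edgeR adjusted p = 0.023). The round 2 call was lost without Met2 rep 3 or Primary2 rep 3 and the round 3 call without Met3 rep 1 or rep 2 or Primary3 rep 1 or rep 3, at an adjusted p of up to 0.084. An antisense RNA, 4731419I09Rik, shares 179 bases with Efna4 and was at most 1.42 CPM in a group mean. It changed by -0.93 in later metastases (SE 0.35, edgeR adjusted p = 0.0602). The part of this RNA in the change of Efna4 was not tested. The window before the start of Efna4 (chr3:89338029-89338278, minus strand, GRCm38.p6) holds the GATA motif, in capitals, 181 bases before the start.
Efna4: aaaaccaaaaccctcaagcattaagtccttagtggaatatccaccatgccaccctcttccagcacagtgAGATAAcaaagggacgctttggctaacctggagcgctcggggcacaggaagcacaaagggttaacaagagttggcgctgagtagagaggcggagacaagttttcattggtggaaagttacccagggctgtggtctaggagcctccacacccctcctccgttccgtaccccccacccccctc
As for Epha2, no binding was measured.

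**Figure D4:**
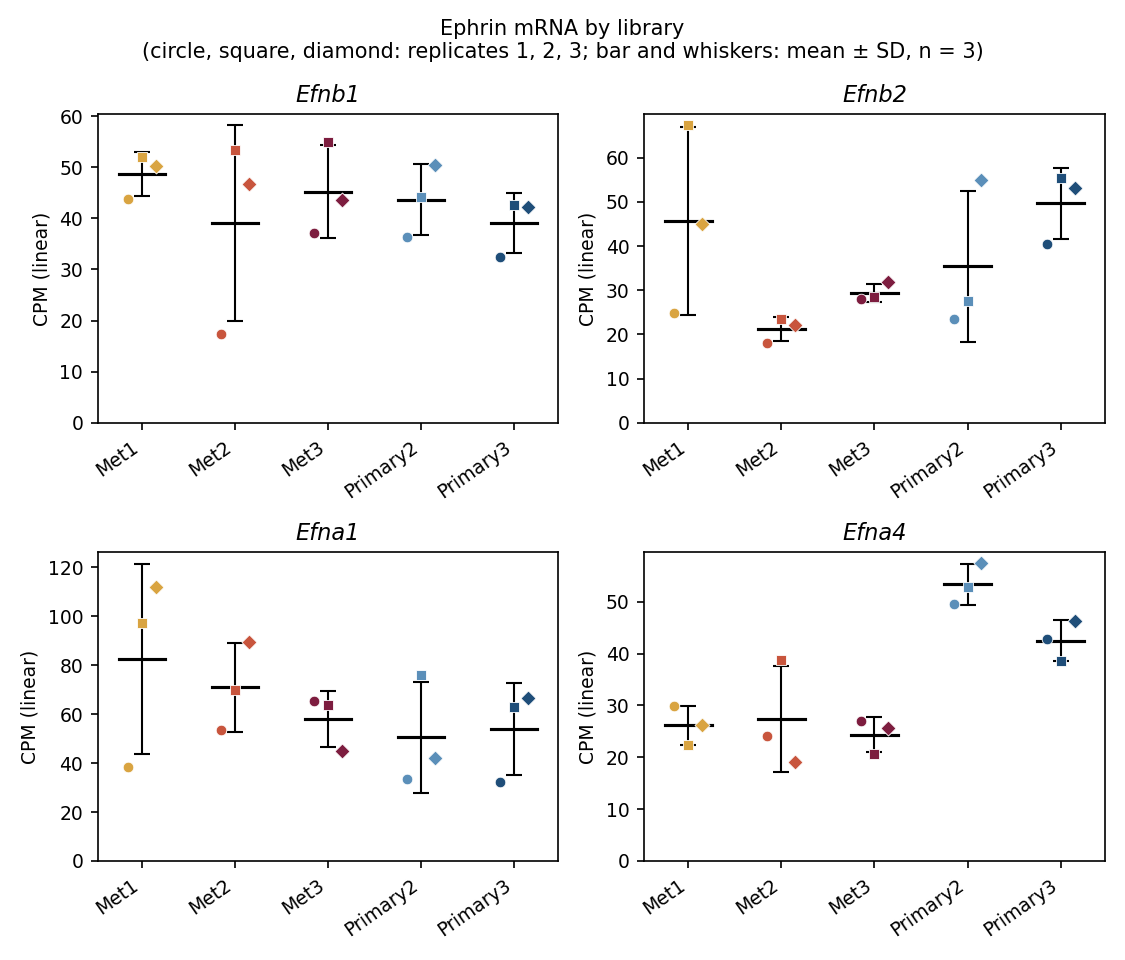
CPM of the 4 ephrin genes in each library on linear axes that start at 0, with group mean ± SD (n = 3). Efna4 is at 38.5 or more in the primaries and at 38.8 or less in the metastases, Efnb1 is even apart from Met2 rep 1, and Efna1 and Efnb2 spread widely within groups.

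Set side by side per kilobase of exon over all 15 libraries, the mean level was 53.5 CPM per kilobase for Epha2, 34.5 for Efna1, 21.7 for Efna4 and 13.1 for Ephb4. It was 12.5 for Efnb1, 9.49 for Epha1, 8.27 for Ephb3, 5.30 for Efnb2, 4.54 for Ephb2 and 3.26 for Epha4. Epha2 thus exceeded every other receptor of the 10. It made up 69.4% to 86.4% of the summed level per kilobase of the 3 A receptors among them in each library. The share of Efna1 in the sum of Efna1 and Efna4 was 37.0% to 58.8% in the primaries and 52.9% to 80.3% in the metastases.

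The level of a receptor relative to its ligand was read as a log2 ratio of CPM per kilobase in each library. Ephb4 over Efnb2 was 2.44 ± 0.65 in Primary2 and 1.63 ± 0.27 in Primary3, against 0.35 ± 0.22 in Met1, -0.01 ± 0.22 in Met2 and 0.13 ± 0.93 in Met3 (SD, n = 3 each). The lowest primary ratio was 1.46 and the highest metastasis ratio 0.91. Ephb2 over Efnb1 was -3.14 ± 0.45 in Primary2 and -3.64 ± 0.31 in Primary3, against -0.82 ± 0.62 in Met1 and -0.79 ± 0.53 in Met3. In Met2 it ranged from -5.24 in rep 1 to -0.76, so that library fell below the primaries. Epha2 over Efna1 overlapped across groups, from -0.32 to 1.07 in Primary2 and from 0.91 to 1.33 in Met3.

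Met1 was compared with the same 6 primaries. Ephb2 and Epha1 were higher and Ephb4 and Efna4 lower, so 4 of the 10 genes were called, where 29.6% of all genes were. Since Met1 and the later metastases share these controls, their values are given side by side only. In round 2, 3 of the 10 were called (Epha1 higher, Ephb4 and Efna4 lower), where 11.8% of all genes were. With the share of ribosomal RNA reads in the fit all 3 calls were lost, at -3.22 for Ephb4 (edgeR adjusted p = 0.0604), 0.54 for Epha1 (adjusted p = 0.256) and -0.70 for Efna4 (adjusted p = 0.317). In round 3, 5 were called (Ephb2, Epha1 and Epha4 higher, Ephb4 and Efna4 lower), where 19.1% of all genes were. There the same fit lost Ephb2 (3.19, edgeR adjusted p = 0.0984), Epha4 (1.06, adjusted p = 0.104) and Epha1 (0.60, adjusted p = 0.0526). The difference between the rounds was itself tested, and edgeR called 0 of the 10 genes and 0% of all genes. At an unadjusted p under 0.05 that test held 1 of the 10, Ephb3, at 0.66 (SE 0.28, edgeR adjusted p = 0.378), and 12.2% of all genes. The difference between rounds was 1.49 (SE 1.14, edgeR adjusted p = 0.616) for Ephb2 and 1.05 (SE 0.60, edgeR adjusted p = 0.494) for Ephb4.

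Among the metastases, Met2 differed from Met1 in 3 of the 10 genes, all lower (Ephb3, Ephb4 and Efnb2), where 16.3% of all genes were called and 7.57% were lower. The share of ribosomal RNA reads differed between these groups too, at 2.01% to 3.73% in Met1 and 6.24% to 7.52% in Met2. With that share in the fit 0 of the 10 were called, at -1.66 for Ephb4 (edgeR adjusted p = 0.204), -1.75 for Efnb2 (adjusted p = 0.118) and -0.56 for Ephb3 (adjusted p = 0.358). Met3 differed from Met1 in 0 of the 10 by edgeR, where 23.4% of all genes were called. Of the 10, 0 had an unadjusted p under 0.05, where 38.1% of all genes did. The changes of the 10 ran from -0.68 for Ephb4 to 0.60 for Epha4. For Epha4 the 3 Met3 libraries lay above the 3 Met1 libraries, where 44.5% of all genes did not overlap. Met3 against Met2 gave 0 calls by edgeR among the 10, where 0.275% of all genes were called. It gave 1 unadjusted p under 0.05 among the 10, where 14.5% of all genes had one. That was Ephb3 (0.53, SE 0.20, edgeR adjusted p = 0.251). Primary3 against Primary2, the passage of control organoids, gave 0 calls by edgeR among the 10, where 0% of all genes were called. It gave 0 unadjusted p under 0.05 among the 10, where 7.12% of all genes had one. DESeq2 also called 0 of the 10 in these 3 comparisons and in the difference between rounds.

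In the order of the 5 group means, a single step between neighbours passed the test in any of the 10 genes. That step was Ephb4 from Primary3 (103 CPM) down to Met1 (40.6 CPM), a log2 difference of 1.34 (edgeR adjusted p = 0.0374). Ephb2 ran from Met1 through Met3, Met2 and Primary2 to Primary3, and its step from Met2 to Primary2 gave an adjusted p of 0.226 in edgeR. Efna4 ran from Primary2 and Primary3 to Met2, Met1 and Met3, and its step from Primary3 to Met2 was 0.64 (edgeR adjusted p = 0.0764). Epha1 ran from Met2, Met3 and Met1 to Primary2 and Primary3 with no step past the threshold.

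Of the 12 other Eph receptor and ephrin genes of the mouse, 5 passed the filter, and 2 of these were called in later metastases, where 30.4% of all genes were. Efna3 lies on chromosome 3 between Efna1 and Efna4, from 89313899 to 89322965, on the same strand as both. Its mean CPM was 60.2 in Primary2, 39.5 in Primary3, 18.9 in Met1, 25.3 in Met2 and 17.6 in Met3, and its change was -1.21 (SE 0.21, edgeR adjusted p = 0.00125). Efna3 and Efna4 were both lower in later metastases while Efna1, at the other end of the cluster, was not called. Whether Efna1 differed from the other 2 was not tested. Epha7, a receptor best known from the nervous system, was low throughout, at 0.443 and 0.143 CPM in Primary2 and Primary3, 1.10 in Met1, 5.80 in Met2 and 5.75 in Met3. It was higher in later metastases by 4.46 (SE 0.97, edgeR adjusted p = 0.00448). Over the alternative fits that difference ran from 3.66 to 5.51, the highest without Primary2 rep 3. Ephb6, a receptor that lacks kinase activity, changed by -0.59 (edgeR adjusted p = 0.16). Efnb3 and Efna5 changed by -0.13 (edgeR adjusted p = 0.75) and -0.07 (edgeR adjusted p = 0.849).

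Of 37 genes that act with Eph receptors and ephrins, 35 were tested, and 6 were higher and 6 lower in later metastases, where 14.3% of all genes were higher and 16.1% lower. Their median change was 0.07, against 0.01 over all genes. The lower ones numbered 3 when Primary3 rep 2, Met2 rep 3 or Met3 rep 1 was left out. Fyn, a Src-family kinase that acts in ephrin-B signalling, was at 0.644 and 1.42 CPM in Primary2 and Primary3 and 4.73 in Met1. It was at 21.6 ± 19.2 in Met2 and 15.9 ± 12.3 in Met3 (SD, n = 3 each). The later metastases were higher by 4.27 (SE 0.74, edgeR adjusted p = 0.00124). Over the alternative fits that difference ran from 3.61 to 5.01, the highest without Primary2 rep 3. Vav3, a signalling protein that acts downstream of receptor tyrosine kinases, was higher by 2.93 (SE 0.49, edgeR adjusted p = 0.00107). Rock1, a kinase that drives contraction after Eph activation, was lower (-0.62, SE 0.09, edgeR adjusted p = 0.000528). Itsn1, an exchange factor for Cdc42 that binds EphB2, was lower (-0.68, SE 0.11, edgeR adjusted p = 0.00103).

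Of 22 Wnt target genes, the class to which Ephb2 and Ephb3 belong, 21 were tested, and 2 were higher and 6 lower in later metastases, with a median change of -0.24 against 0.01 over all genes. Across all genes 14.3% were higher and 16.1% lower. The lower ones on the list included Ascl2, a stem cell factor, at -1.81 (SE 0.48, edgeR adjusted p = 0.0131, and -2.52 without Met2 rep 2), the Wnt inhibitor Znrf3 at -0.90 (SE 0.18, adjusted p = 0.00275), the transcription factor Tcf7 at -0.78 (SE 0.16, adjusted p = 0.00282) and the ion transporter Slc12a2 at -0.76 (SE 0.15, adjusted p = 0.00233). The 2 higher ones became 1 or 0 without any 1 later metastasis or primary library other than Met2 rep 2. Counting Met1 among the metastases left 3 lower, with Tcf7 and Ascl2 no longer called. In Met1 itself 8 of the 21 were higher than in the primaries and 0 lower by edgeR. Across all genes 29.6% were called there, higher and lower together. The median of the 21 was 0.47, against -0.03 over all genes. Ephb2 was called higher than in the primaries in both comparisons. Of 15 genes of intestinal differentiation, 9 were tested, and 5 were higher and 0 lower by edgeR in later metastases, with a median of 1.22 against 0.01 over all genes, and the higher ones numbered 3 with the ribosomal RNA share in the fit. They included Car1 at 4.36 (SE 0.99, edgeR adjusted p = 0.00583, and 3.25 without Met3 rep 1), a carbonic anhydrase of colonocytes, Ceacam1 at 1.41 (SE 0.32, adjusted p = 0.00598), Cdkn1a, a cell cycle inhibitor, at 1.22 (SE 0.30, adjusted p = 0.00861) and Lypd8 at 3.84 (SE 1.04, adjusted p = 0.0148), whose call was lost without Met2 rep 3 (2.18, adjusted p = 0.163) and with the ribosomal RNA share (adjusted p = 0.057).

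Genes with the pattern most like each called gene were ranked by Pearson's r of log2 CPM over the 15 libraries, as a description. For Ephb2 they were Efhd2 (0.95), Arhgap32 (0.95) and Zzef1 (0.94). For Ephb3 they were Dpf2 (0.85), Carmil1 (0.81) and Vps13b (0.81). For Ephb4 they were Ncs1 (0.95), Fstl4 (0.95) and Msn (0.94), the last a linker of membrane and actin. For Epha1 they were Pip5k1c (0.94), Lrrc20 (0.93) and Plekhg6 (0.91). Epha4 was most like Tent4a (0.92), Mlph (0.91) and Cdca8 (0.91), and Efnb2 most like Tnks (0.89), Adam9 (0.87) and Glg1 (0.87). Efna4 was most like Tor1b (0.92), Tgfb3 (0.91) and its neighbour Efna3 (0.91). Among the 10 genes themselves, the highest r was 0.74 for Ephb2 with Efnb1 and for Ephb4 with Efna4, and the lowest was -0.77 for Ephb4 with Epha1. These values share libraries and group differences, and that of Ephb2 with Efnb1 includes Met2 rep 1, where both were at their lowest.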

How the data were processed

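RNA was extracted with a PureLink kit and made into directional poly(A) libraries, per the labels' protocols. The authors deposited estimated counts per gene, made with Salmon 1.3.0 on mm10, per the submitters' processing notes. No source used here gives the annotation, the summing to genes, any rounding or the use of strand. All values were whole, and they were tested as deposited. The test was planned for counts and kept for these estimated counts. Names, positions and exon lengths came from GENCODE M21 (GRCm38), which matched 54096 identifiers, and promoter windows from RefSeq (GRCm38.p6).

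Genes were filtered with filterByExpr by group, scaled by TMM and tested with edgeR 4.0.16 (quasi-likelihood F test, group means, all 15 libraries in 1 fit) in R 4.3.3. Benjamini-Hochberg adjustment ran over all genes of a comparison, and each SE was derived as |log2 change|/√F. The script was tested on simulated data. Groups came from the sample titles. Alternatives used DESeq2 1.42.0, its size factors, no filter, the compared groups alone, a replicate block, the ribosomal RNA share and each library left out.

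The 10 genes and all lists were chosen with earlier results of these data known. All 10 are named, with the other family genes that passed the filter and, from each other list, up to 4 called genes of smallest p. The 3 genes most like each member by r were looked up among 12117 named genes and are given for called members and Ephb3. Deviations from the group means had a mean r of 0.04 over 30 pairs with the same replicate number (8 over 0.1) and -0.02 over 60 other pairs (8 over 0.1). Since not every same-number pair was over 0.1, numbers were not taken to pair libraries. No replicates agreed within sampling noise.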

Additional observations from a re-analysis of the deposited data

How the results depend on the processing

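Of the 90 tests of the 10 genes in 9 comparisons, 21 were called, and 7 of these kept their call under every alternative run. Ephb2, Ephb4, Epha1 and Efna4 in later metastases against primaries kept theirs under all 19, with edgeR or DESeq2 adjusted p up to 0.0315. No called test changed sign. The count of called genes in that comparison ran from 4 to 6 with single libraries left out. With the ribosomal RNA share in the fit it was 0 in round 2 (Met2 against Primary2), 2 in round 3 (Met3 against Primary3) and 0 for Met2 against Met1. Among those lost calls, Ephb4 in round 2 went from -3.07 to -3.22, Epha1 from 0.47 to 0.54 and Efna4 from -0.96 to -0.70. In round 3 Ephb2 went from 3.04 to 3.19, Epha4 from 0.996 to 1.06 and Epha1 from 0.65 to 0.60. For Met2 against Met1 Ephb4 went from -1.495 to -1.66, Efnb2 from -1.11 to -1.75 and Ephb3 from -0.66 to -0.56. With the compared groups alone in the fit the count was 1 in round 2 and 0 for Met2 against Met1. With single libraries left out it ran from 1 to 4 in round 2 and from 2 to 4 in round 3. It then ran from 0 to 2 for Met2 against Met1 and from 3 to 4 for Met1 against primaries. Over all alternatives the count ran from 3 to 6 for Met1 against primaries and from 2 to 6 in round 3. The causes of these shifts were not tested, and the share of all genes called under each alternative was not recorded.

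Replicate numbers are shared by the groups but were not taken to pair the libraries. The replicate block gave 6 called genes for later metastases against primaries, 3 for Met1 against primaries, 2 in round 2, 5 in round 3 and 3 for Met2 against Met1. Under it the Epha1 calls in Met1 (adjusted p = 0.0651) and round 2 (adjusted p = 0.0685) were lost. It turned the sign of Efnb1 in later metastases to -0.016.

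Of the 69 tests not called, 62 stayed uncalled under every alternative. With the compared groups alone, edgeR called Ephb3 (0.50, adjusted p = 0.0177) and Epha2 (0.54, adjusted p = 0.0268) higher in Met1. That fit called Efnb2 lower in round 3 (-0.74, adjusted p = 0.0134). Efna1 in Met1 was called as given above. Without Met2 rep 1, calls were gained for Epha2 in later metastases, Ephb2 in round 2 and Epha1 in Met2 against Met1. The sign changed at least once in 26 of the 69. Values of these changes follow for the comparisons reported gene by gene. With the ribosomal RNA share, Efnb1 in later metastases was -0.039, Efnb3 there 0.033, Epha2 and Efna1 in round 2 were -0.14 and -0.75, and Epha2 in Met3 against Met1 was -0.0094. With single libraries left out, later metastases against primaries gave -0.0145 to 0.15 for Ephb3, -0.10 to 0.20 for Efnb1, -0.26 to 0.053 for Efnb3 and -0.22 to 0.16 for Efna5. Efnb2 in Met1 against primaries ranged from -0.26 to 0.42, Efnb1 in round 2 from -0.43 to 0.20 and Efna1 in round 3 from -0.16 to 0.28. In Met2 against Met1 the ranges were -0.062 to 0.48 for Epha4, -0.61 to 0.039 for Efnb1, -0.56 to 0.064 for Efna1 and -0.28 to 0.28 for Efna4. In Met3 against Met1 they were -0.34 to 0.18 for Ephb2, -0.26 to 0.027 for Ephb3, -0.14 to 0.30 for Epha2, -0.27 to 0.036 for Efnb1 and -0.20 to 0.0086 for Efna4. The ranks of the 10 genes by level per kilobase were the same for 8 with the longest transcript as length. The lowest count of any of the 10 genes in a library was 25, for Ephb2 in Met2 rep 1.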
